A study of Mus musculus with 2 samples.

Results

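Sarcomere genes, a set of 33 chosen by name for their place in the contractile apparatus of striated muscle, were described across cardiomyocyte subsets and between genotypes in the embryonic mouse heart. All 33 were found, by Ensembl gene ID, among the 22401 features of both deposited matrices of UMI (unique molecular identifier) counts, and each had at least 1 UMI in the kept cells of each library. The data came from single-cell RNA sequencing of whole mid-gestation hearts (E11.5), with 1 library for each genotype. Control embryos were Hand2fx/+ R26RmTmG/wt and carried no Cre. H2CKO embryos were Nfatc1Cre/wt Hand2fx/fx R26RmTmG/wt, so both alleles of the transcription factor gene Hand2 could be deleted. Nfatc1 drives Cre in the endocardium, the inner lining of the heart, so cardiomyocytes are not the cells in which this Cre is known to act. Both genotypes carried 1 floxed Hand2 allele at least and 1 copy of mTmG, a reporter that switches from Tomato to GFP where Cre acts. How many embryos went into each library, and their sex, are not given in the sources used here. The comparison sets muscle cells of control hearts against those of hearts where Hand2 could be deleted in the endocardium next to them. Cre and the Nfatc1Cre allele were in H2CKO alone, so their effects cannot be told apart from loss of Hand2. With 1 library per genotype, every difference below is between these libraries, has no replicate check and carries no p-value.

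The sarcomere is the repeating unit of the myofibril. Thick filaments of myosin pull on thin filaments of actin, tropomyosin and troponin, the calcium switch. Titin spans from the Z-disc, where thin filaments are anchored, to the M-line, where thick filaments are joined. The heart builds these filaments from paralogous genes whose proportions differ between atrium and ventricle and shift during development. Myh6 encodes the alpha and Myh7 the beta myosin heavy chain. Tnni1 and Tnnt1 encode troponin forms of slow skeletal muscle that are also made in embryonic heart, while Tnni3 and Tnnt2 encode the cardiac forms. Myl7 and Myl4 encode light chains typical of the atrium, and Myl2 and Myl3 their ventricular counterparts.

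Sequence upstream of the start is shown for 5 of the members that the comparisons below turn on. Myh6 and Myh7 are neighbours whose proportions differed between atrium and ventricle, Myl7 separated atrial and outflow cells from ventricular ones, and Tnnt1 and Ttn differed between the libraries. The sequences are from RefSeq on GRCm38.p6, run 5′ to 3′ on the minus strand that carries each of these genes, and leave out bases that the annotation places in an exon. Those of Myh7, Myl7 and Ttn end just before the start. In Myh6 and Tnnt1 the RefSeq start lies 320 and 407 bases inside the gene as GENCODE annotates it, so both sequences lie within the gene, and 34 and 29 exonic bases next to the start are left out. They lie at chr14:54966642-54966857 (Myh6), chr14:54994627-54994876 (Myh7), chr11:5898783-5899032 (Myl7), chr7:4516005-4516225 (Tnnt1) and chr2:76982548-76982797 (Ttn). Capitals mark matches to motifs of factors known from muscle promoters: MCAT (CATTCC, or GGAATG on the other strand) in Myh6, Myh7 and Myl7, CArG in Myl7 after its MCAT, a T-box motif (AGGTGT) in Tnnt1, and MEF2 in Ttn.
Myh6: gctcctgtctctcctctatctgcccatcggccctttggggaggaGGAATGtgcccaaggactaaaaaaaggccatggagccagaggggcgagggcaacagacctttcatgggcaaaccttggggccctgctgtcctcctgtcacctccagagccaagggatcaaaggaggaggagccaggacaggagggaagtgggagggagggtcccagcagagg
Myh7: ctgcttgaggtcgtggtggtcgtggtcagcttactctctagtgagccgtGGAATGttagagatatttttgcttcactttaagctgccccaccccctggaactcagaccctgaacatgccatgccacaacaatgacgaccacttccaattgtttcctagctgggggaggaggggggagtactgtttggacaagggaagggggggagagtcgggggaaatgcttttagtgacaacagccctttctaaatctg
Myl7: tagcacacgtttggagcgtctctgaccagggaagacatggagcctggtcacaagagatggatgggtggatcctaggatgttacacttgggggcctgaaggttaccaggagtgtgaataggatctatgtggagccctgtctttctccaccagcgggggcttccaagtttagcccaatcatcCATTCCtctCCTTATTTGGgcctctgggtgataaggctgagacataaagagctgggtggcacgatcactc
Tnnt1: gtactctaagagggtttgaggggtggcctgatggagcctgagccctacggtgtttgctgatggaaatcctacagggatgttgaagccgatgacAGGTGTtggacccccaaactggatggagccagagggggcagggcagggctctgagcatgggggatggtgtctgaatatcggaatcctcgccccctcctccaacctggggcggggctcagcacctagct
Ttn: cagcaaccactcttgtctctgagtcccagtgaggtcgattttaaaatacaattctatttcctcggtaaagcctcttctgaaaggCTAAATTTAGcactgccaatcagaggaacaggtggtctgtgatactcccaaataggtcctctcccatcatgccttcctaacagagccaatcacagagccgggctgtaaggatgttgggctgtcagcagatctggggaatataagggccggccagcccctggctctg
The MCAT match began 206 bases before the start in Myh6, 201 in Myh7 and 70 in Myl7. The CArG match in Myl7 began 61 bases before the start, the T-box match in Tnnt1 157 and the MEF2 match in Ttn 166. Tnnt1 also had a TATA match that began 30 bases before a RefSeq start. It is not marked because it does not lie wholly within the bases shown. None of these matches overlapped another. Of the 33 members, 28 had at least 1 upstream window in the table, 39 windows in all, and each was searched on both strands over 250 bases. MCAT was in a window of 10 of the 28 members and in 12.6% of all 32851 windows. CArG, the site of serum response factor, was in 7 members (Nebl, Actc1, Acta1, Myl3, Myl7, Ldb3 and Myom1) and in 1.47% of all windows. MEF2 was in 5 (Xirp2, Ttn, Mybpc3, Myoz2 and Synpo2l) and in 2.92%, a GATA motif (AGATAA) in 6 and in 9.99%, the T-box motif in 5 and in 11.8%, and a TATA motif (TATAAA) in 5 and in 12.4%. Some members had several windows, so shares per member and per window are not on the same footing, and a match is not evidence of binding.

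The control matrix held 14114 barcodes and 195825720 UMIs, and the H2CKO matrix 13885 barcodes and 201477256 UMIs. After filtering, 8921 and 11534 cells remained, with medians of 16250 and 13432 UMIs, and 29 barcode sequences occurred among the kept cells of both libraries. Levels are in CPM, the UMIs of a gene scaled to a total of 1000000 UMIs for the class and library. Hand2, the targeted gene, was at 226 CPM (exact 95% Poisson interval 215 to 238) in control and 10.9 CPM (8.92 to 13.2) in H2CKO endothelial-like cells, and at 82.2 and 74.3 CPM in cardiomyocyte-like cells. Which part of Hand2 is deleted is not given in the sources used here, and a 3′ assay can still count what a deletion leaves. The 2164 control and 4051 H2CKO cardiomyocyte-like cells differed in quality: median UMIs were 25011.5 and 17475, median mitochondrial UMIs 4.64% and 7.0%, and haemoglobin made up 1.41% and 2.4% of their UMIs. Summed smooth muscle markers were at 4618 and 3174 CPM in those cells and mesenchymal markers at 595 and 253 CPM. These gaps lie beside every comparison of genotypes below, and their part in it was not tested.

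Cardiomyocyte-like cells were divided into subsets by clustering that left out all sarcomere genes, so a member's level played no part in naming a subset. Atrial-like cells (98 control, 6 H2CKO) were led by Nr2f1, Stard10 and Nr2f2. Of the atrial markers in the control, Sln was higher in outflow-like cells (67.4 against 14.6 CPM). Kcnj5 (52.4 against 31.6) and Tbx5 (149 against 137) were higher in AV canal-like cells, described below, and the rest were highest in atrial-like cells. Trabecular-like cells (624 and 1499), the inner ridges of the ventricle, came from 2 clusters. Cluster 2 was led by Nppa, Cited1 and Nppb, and cluster 1 by Sox3 and Igfbpl1 with both the trabecular gene Gja5 and the compact gene Hey2 among its top genes. Compact-like cells (581 and 1374), named after the outer ventricular wall, came from 2 clusters. Cluster 0 was led by Ckm and Hey2. Cluster 3 was led by histone and cell division genes, with no compact marker among its top genes. Outflow-like cells (395 and 539) expressed Rspo3, Bmp4 and Isl1 and came from cluster 4 (309 and 433 cells), led by Rspo3 and Cox4i2, and cluster 9 (86 and 106), led by Crabp1, Bmp4 and Eln. Smooth muscle markers summed to 11587 and 12981 CPM in cluster 9 and to 5360 and 4824 CPM in cluster 4. The lowest 5% of cluster 9 cells had at most 1.23% and 1.68% of their UMIs from the 33 genes, against 6.72% and 6.99% in cluster 4. What part of cluster 9 is not muscle was not tested. A further cluster (94 and 177 cells) expressed Bmp2 and Tbx3 and is called AV canal-like, after the muscle between atria and ventricles. Rspo3 was higher there (977 and 800.0 CPM) than in outflow-like cells (463 and 366). So was Bambi, another outflow marker (359 and 450 against 233 and 286 CPM). Of the other outflow markers, Sema3c and Wnt11 were highest in outflow-like cells of both libraries. Tdgf1 (0.092 and 1.65 CPM) and Crabp2 (0.552 and 1.13) were barely detected in them. In H2CKO, Wnt5a was lower in outflow-like than in trabecular-like cells (28.1 against 40.5 CPM). The compact name is weak. The median log2 fold of its markers was 0.25 in cluster 0 over other cardiomyocytes, and only 4 of 8 in control and 3 of 8 in H2CKO were higher in compact-like than in trabecular-like cells. Of the compact markers, Prdm16, Ccnd1, Tbx20 and Irx4 were higher in trabecular-like cells of both libraries, and Hey2 in those of H2CKO (66.9 against 63.8 CPM). The trabecular markers were higher in trabecular-like cells for 9 of 10 in control and 10 of 10 in H2CKO. At resolution 0.5 a cluster led by Sox3 took the compact name. The 6 H2CKO atrial-like cells had Myl2 at 9154 CPM and Myh7 at 1543 CPM, against 339 and 119.5 CPM in the control atrial-like cells, so atrial-like cells were described in the control only and not compared between genotypes.

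Together the 33 genes took a median of 8.39% of a control cardiomyocyte-like cell's UMIs and 8.70% in H2CKO, and 8.42% and 8.72% with every cell thinned to 5000 UMIs. The share was highest in atrial-like cells, at 10.2%, then 9.54% and 9.56% (control and H2CKO) in AV canal-like, 9.15% in outflow-like cells of both libraries, 8.45% and 8.72% in trabecular-like and 8.36% and 8.82% in compact-like cells. Control trabecular-like and compact-like cells overlapped widely, with quartiles of 7.76% to 9.17% and 7.57% to 9.08%. Erythroid-like cells, which build no sarcomeres, had medians of 0.159% and 0.186%. In this total the libraries were close.

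**Figure D1:**
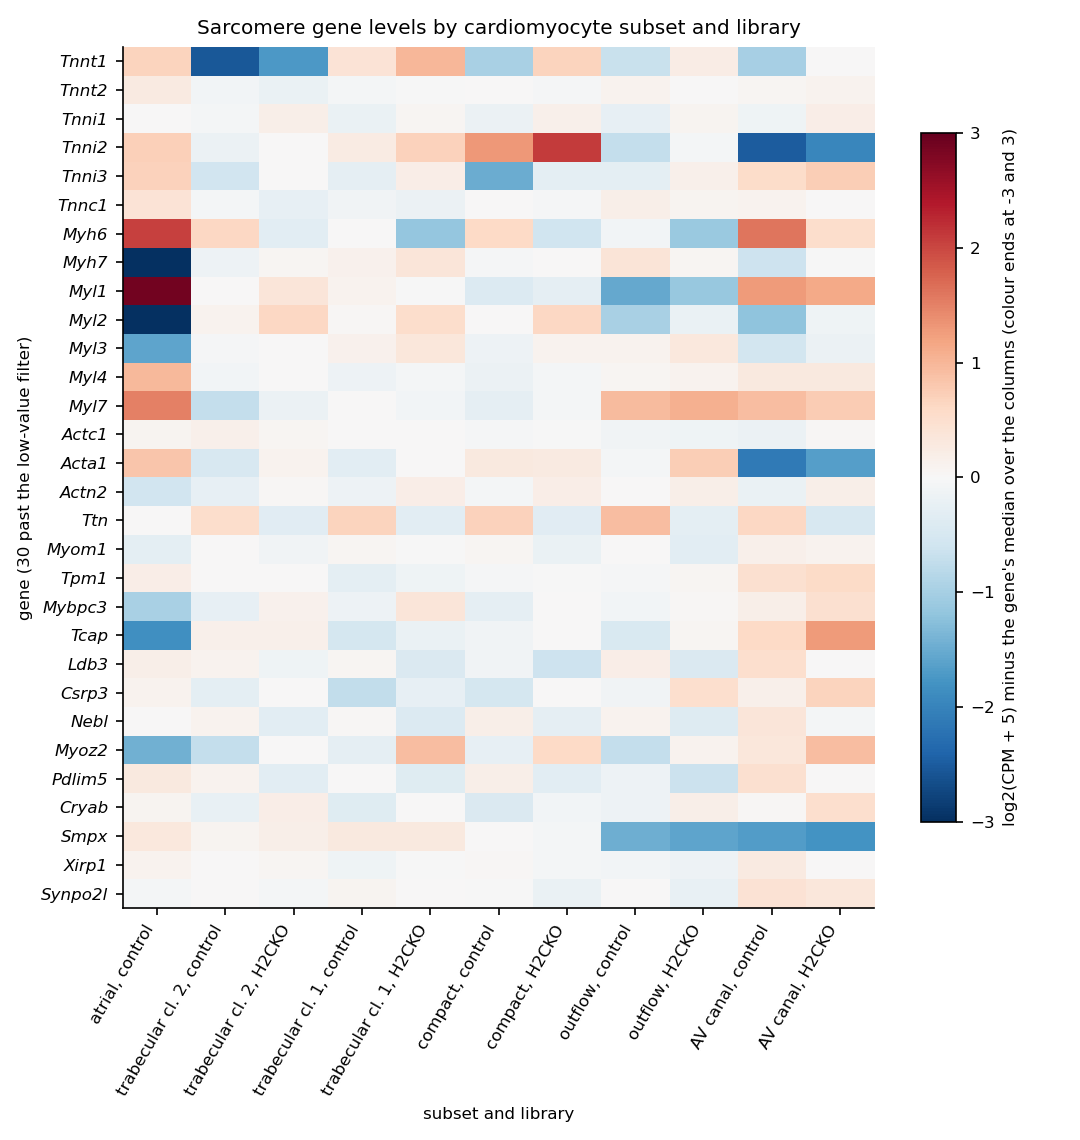
Heat map of the 30 sarcomere genes past the low-value filter (lines) in each cardiomyocyte subset and library (columns), as log2 of CPM plus 5 minus the gene's median over the columns, with the colour scale ending at −3 and 3. Myh7 and Myl2 are darkest blue and Myl1 darkest red in the atrial column, and Tnni2 is red in the compact columns and blue in the AV canal columns.

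Between positions in the heart, several members differed from their own paralogs in opposite directions. Ratios and folds here are of CPM plus 5, on a log2 scale where said, and intervals are of the ratio of counts without the 5. A gene was tested with at least 20 CPM and 20 UMIs in the higher side, and called means at least 2-fold. All members but Myh7b, Myom2 and Xirp2 were tested. In the control library 11 of 30 members were past 2-fold between atrial-like and ventricular-like (trabecular-like plus compact-like) cells, against 4.9% of all 5737 genes tested. The median member ratio was 0.16, and that of all genes was −0.07. Of the 11, 6 were higher in atrial-like cells (2.67% of all genes were) and 5 lower (2.23%), and 9 were myosins or troponins.

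Myl2 and Myh7, the ventricular light and heavy chains, had the largest ratios, 25.1-fold and 23.0-fold lower in atrial-like cells. Myh6 was at 3841 CPM in atrial-like and 1308 CPM in ventricular-like control cells, 2.93-fold higher (exact interval of the ratio 2.86 to 3.01, counting error only). Myh7 was at 119.5 and 2861 CPM. Myh6 therefore made up 97.0% (exact binomial interval 96.6 to 97.3) of the UMIs of the pair in atrial-like cells. Its share was 30.0% in trabecular-like, 32.9% in compact-like, 18.7% in outflow-like and 59.6% in AV canal-like control cells. AV canal-like cells thus lay between the atrial-like and ventricular-like mixtures, at 2817 CPM of Myh6 and 1909 CPM of Myh7. Erythroid-like control cells, which build no sarcomeres, had Myh7 at 46.3 CPM (44.5 to 48.2), below the atrial-like level. A UMI of Myh7 was seen in 66.3% of atrial-like cells and in 52.4% of erythroid-like cells, whose median depths were 20002.5 and 18342 UMIs, or 30.9% and 19.6% after thinning. How much of the atrial-like level is free RNA was not tested.

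The regulatory light chains placed outflow-like cells between the atrial-like and ventricular-like ones, whereas the Myh6 share there was below the ventricular-like shares. Myl7, the atrial regulatory light chain, was at 20467 CPM in atrial-like, 13888 in outflow-like and 13660.0 in AV canal-like control cells, but at 5453 and 5919.5 in trabecular-like and compact-like cells. Myl2, its ventricular counterpart, ran the other way, at 339 CPM in atrial-like cells, 4261 in outflow-like, 3628 in AV canal-like, 8854 in trabecular-like and 8331 in compact-like cells. Of the UMIs of Myl2 and Myl7 together, Myl2 took 1.63% in atrial-like, 21% in AV canal-like, 23.5% in outflow-like, 58.5% in compact-like and 61.9% in trabecular-like control cells. The essential light chains showed a smaller contrast. Myl4 was at 15017 CPM in atrial-like and 6933 in ventricular-like cells, and Myl3 at 2426 and 6975 CPM. Myl3 took 13.9% of the pair in atrial-like cells, 34.5% in AV canal-like cells and 48.9% to 51.1% in the other named subsets of the control. Myl1, an essential light chain of fast skeletal muscle, had the highest ratio of any member in atrial-like cells, 8.21-fold (8.05 to 8.64), at 2287 against 274 CPM. Outflow-like cells had the least Myl1, at 101 CPM.

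**Figure D2:**
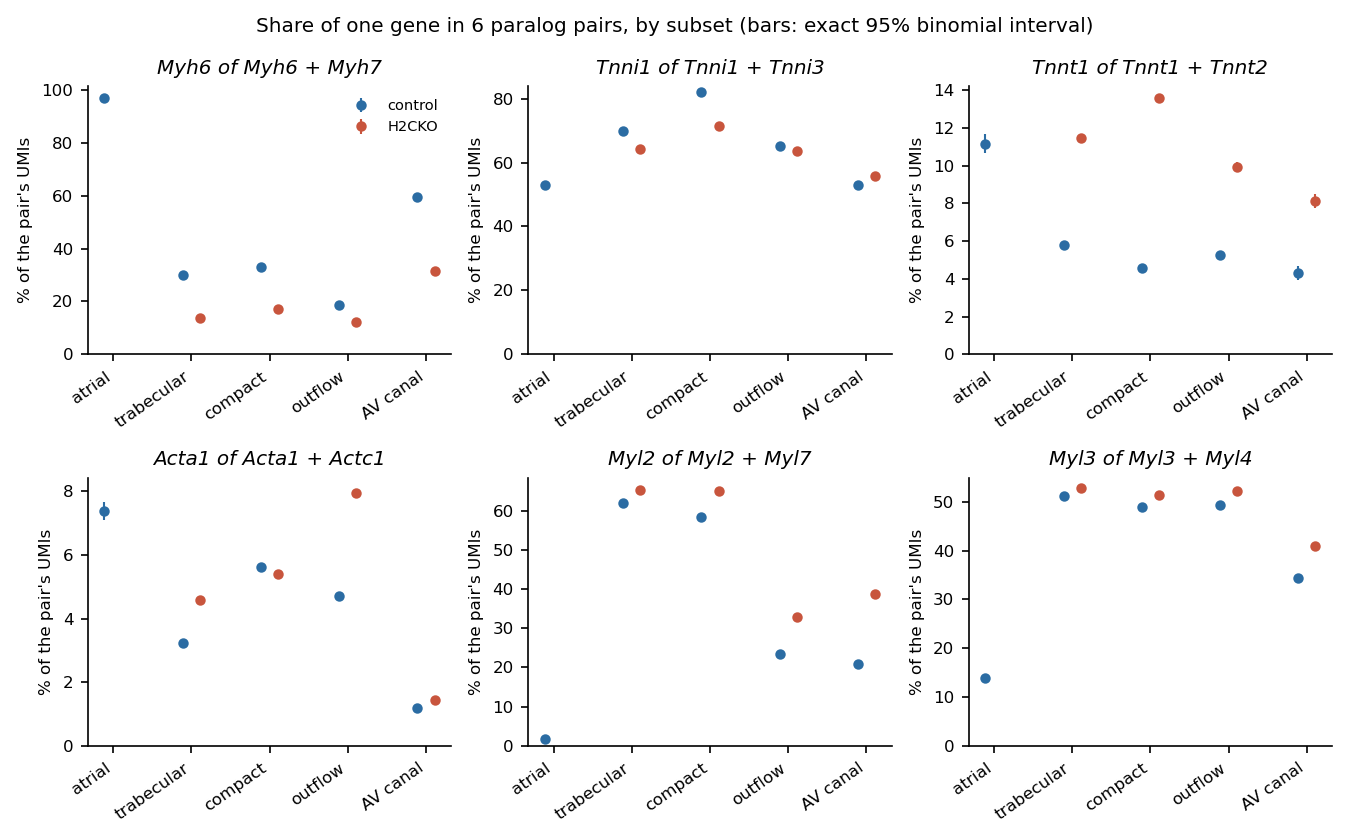
Share of the first-named gene in the summed UMIs of 6 paralog pairs (vertical axes, %) by cardiomyocyte subset and library, with exact 95% binomial intervals mostly smaller than the points. Myh6 took 97.0% of its pair in atrial-like control cells and 18.7% to 59.6% in the other control subsets, and its H2CKO points lie below the control in all 4 subsets compared.

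Among the troponins, Tnni3, Tnni2 and Tnnt1 varied more over the subsets than Tnni1, Tnnt2 or Tnnc1. Tnnt2 was between 5059 and 6439.9 CPM and Tnnc1 between 4042 and 5621 CPM over the 5 control subsets. Tnni3, the adult cardiac troponin I, was at 2737 CPM in atrial-like, 2491 in AV canal-like, 1386 in outflow-like and 1233 in trabecular-like cells, and lowest in compact-like cells at 597 CPM. Tnni1, the form that precedes it in development, lay between 2597 and 3095 CPM. Tnni1 thus took 82.1% of the pair in compact-like cells and 53.1% in both atrial-like and AV canal-like cells. Tnni2, the fast skeletal troponin I, was highest where Tnni3 was lowest, at 289 CPM in compact-like, 192 in atrial-like, 116 in trabecular-like, 68.5 in outflow-like and 16.2 in AV canal-like cells. Tnnt1, the slow skeletal troponin T, was at 809 CPM in atrial-like cells, 2.81-fold (2.70 to 3.00) above ventricular-like cells, and between 249.8 and 315 CPM in the other subsets of the control.

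Between trabecular-like and compact-like cells few members differed. Since the compact name is weak, this is a comparison of clusters and not of established layers of the ventricle. Tnni2 was the 1 member of 30 past 2-fold in both libraries between trabecular-like and compact-like cells, against 0.305% of 4913 genes tested in both. It was 2.43-fold lower in trabecular-like cells of the control and 3.14-fold lower in H2CKO. Tnni3 was 2.06-fold higher (2.02 to 2.12) in the control, with a log2 ratio of 0.41 in H2CKO. In the control it stayed past 2-fold under 10 of 16 alternatives, with log2 ratios from 0.27 to 1.24. The count of members past 2-fold in both libraries was 0 with only the cells of the authors' embedding or at clustering resolution 2, and 2 at resolution 0.5.

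Tnnt1 differed more between the trabecular-like clusters than between trabecular-like and compact-like cells as a whole. In the control it was at 82.9 CPM in trabecular-like cluster 2, 671 in trabecular-like cluster 1, 269 in compact-like cluster 0 and 234 in compact-like cluster 3. In H2CKO the same clusters were at 149.8, 1009.6, 1046 and 549 CPM. Against all compact-like cells, Tnnt1 had log2 ratios of −1.56 in control and −2.39 in H2CKO for cluster 2, and of 1.38 and 0.32 for cluster 1. A Tnnt1 UMI was found in 26.9% of control cluster 2 cells and 70.7% of cluster 1 cells after thinning, with 4.42% in erythroid-like cells. Without thinning the shares were 74.4%, 96.8% and 13.0%, at median depths of 26087.5, 30482.5 and 18342 UMIs. The level of Tnnt1 in trabecular-like cells as a whole, 309.7 CPM, was thus the mean of a low and a high cluster. Cluster 1 made up more of the trabecular-like cells in H2CKO (867 of 1499) than in control (222 of 624), so the mix of clusters in that subset differed between the libraries.

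**Figure D3:**
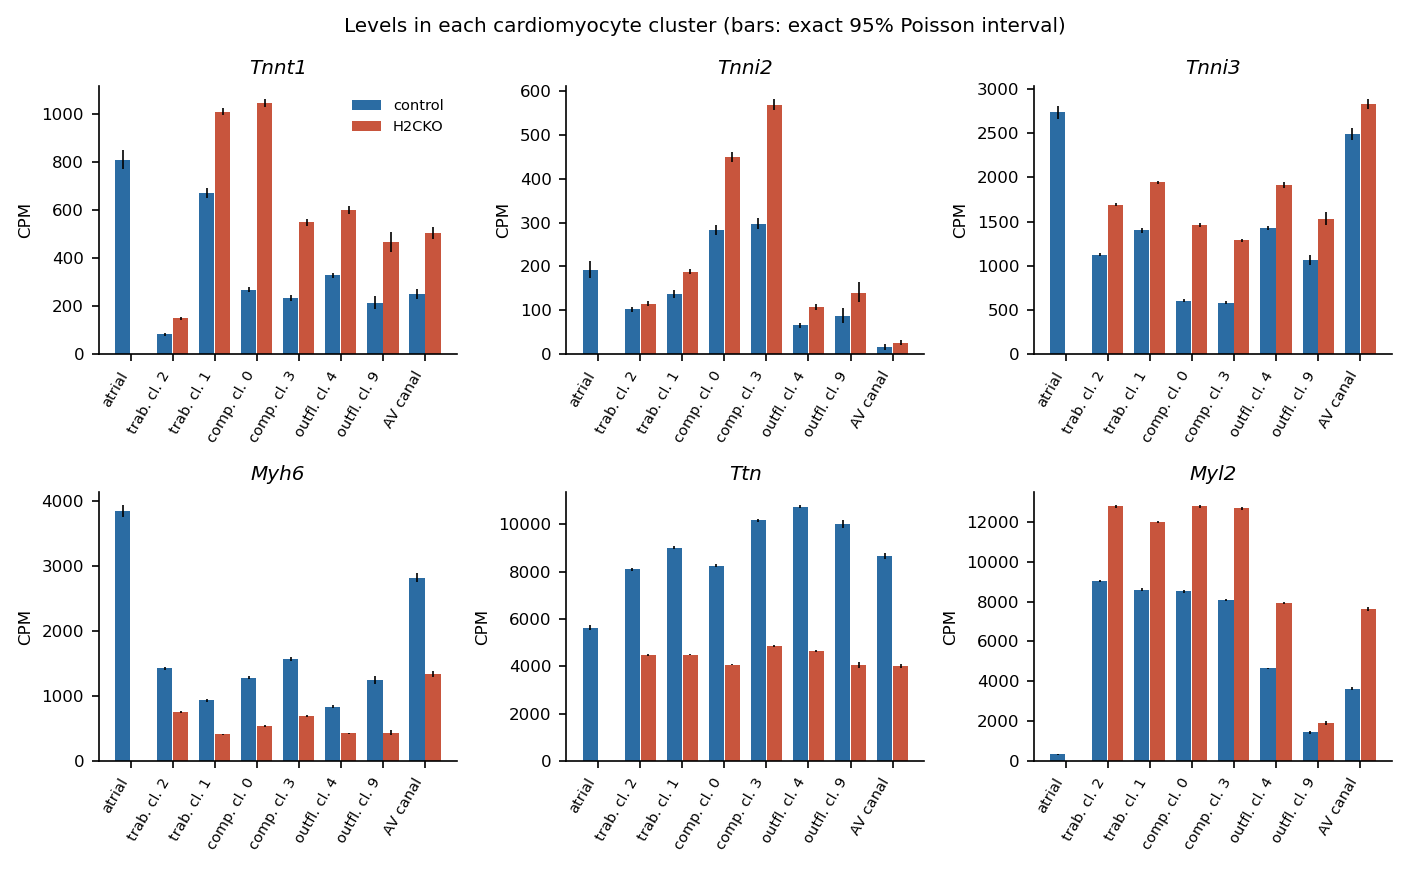
Levels in CPM (vertical axes from 0) of 6 sarcomere genes in each named cardiomyocyte cluster, control blue and H2CKO red, with exact 95% Poisson intervals that cover counting error only; atrial-like cells are shown for the control alone. Tnnt1 spans 82.9 to 671 CPM between the trabecular clusters of the control, while Ttn is lower in H2CKO in each of the 7 clusters compared.

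Outflow-like cells differed from ventricular-like cells past 2-fold in both libraries for 4 of 30 members, against 2.42% of 5158 genes. Myl7 was higher, with log2 ratios of 1.29 in control and 1.15 in H2CKO. Smpx, a small protein of the costamere, was lower (−1.56 and −1.71), as were Tnni2 (−1.45 in both) and Myl1 (−1.40 and −1.12). Myl2 was at −1.01 and −0.78. Myh7 was at 3839.8 CPM in control and 3045 CPM in H2CKO outflow-like cells, the one subset of the 4 compared in which it was lower in H2CKO. Within the subset, Myl7 was at 13226 CPM in cluster 4 and 18747 in cluster 9 of the control, Myl2 at 4645 and 1440, and Myh6 at 834 and 1244. Smooth muscle markers summed to 6106 CPM in control outflow-like and 4584 CPM in ventricular-like cells, and their part in these ratios was not tested.

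In AV canal-like cells 5 of 30 members were past 2-fold of ventricular-like cells in both libraries, against 5.15% of 5437 genes. Myh6 (log2 ratios 1.10 in control and 1.2 in H2CKO) and Myl1 (1.43 and 1.16) were higher. Tnni2 (−3.24 and −3.36), Smpx (−1.77 and −1.91) and Acta1 (−2.07 and −1.79) were lower. Acta1, the skeletal actin gene that embryonic heart also uses, was at 155 CPM in AV canal-like control cells and between 519 and 1239 CPM in the other 4 control subsets. It took 1.18% of the UMIs of Acta1 and the cardiac actin gene Actc1 there, against 3.23% in trabecular-like and 7.38% in atrial-like cells. Tcap, which caps titin at the Z-disc, was highest here, at 457 CPM in control and 735 CPM in H2CKO, and lowest in atrial-like cells at 80.4 CPM. At 1.5-fold 10 of 30 members were called, against 14.5% of genes. The AV canal-like comparison was added after the cluster had been seen.

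The remaining members, apart from Mybpc3 and Myoz2, ranged under 2-fold over the 5 control subsets. There Actc1 ranged from 13025 to 15550.0 CPM, Ttn from 5639 to 10659.9, Tpm1 (tropomyosin) from 7272 to 10725, Actn2 (alpha-actinin of the Z-disc) from 404 to 608, Myom1 (myomesin of the M-line) from 209 to 283 and Mybpc3 (cardiac myosin-binding protein C) from 288 to 641 CPM. Csrp3, Ldb3, Nebl, Pdlim5 and Synpo2l of the Z-disc, Cryab, a small heat shock chaperone, and Xirp1 also stayed under 2-fold of ventricular-like cells in atrial-like control cells. Myoz2, a calcineurin-binding Z-disc protein, was 2.08-fold lower there, at 43.2 against 95.4 CPM. Of 58 further sarcomere genes on a fixed list, 37 were tested in that comparison and 12 were past 2-fold, against 4.9% of all genes. Of these, 10 were higher (2.67% of all genes) and 2 lower (2.23%). The largest were Mybphl (116 against 8.02 CPM), Tnnt3 (126 against 9.76), Trim54 (log2 ratio 1.97), Cmya5 (1.91), Nrap (−1.83) and Klhl41 (1.75). In outflow-like over ventricular-like cells Mybpc1 (2.69 in control and 2.44 in H2CKO) and Pdlim3 (1.11 and 1.16) were past 2-fold in both libraries, and in AV canal-like cells Fhl2 (1.73 and 1.14) and Synm (1.37 and 1.31).

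Between genotypes most sarcomere genes lay close together, and a small group did not. In cardiomyocyte-like cells Tnnt1 and Myoz2 were at least 2-fold higher in H2CKO, and Myh6 and Ttn at least 2-fold lower. These 4 of 30 members compare with 1.03% of 5607 genes (58 genes), with 11 genes or 0.196% higher and 47 or 0.838% lower. The median log2 ratio was 0.06 for members and −0.18 for all genes, and 5 of 30 members lay below the median gene. None of 34 tested genes of the further list was past 2-fold, and their median was 0.03. The direction of the member median was not stable: a stricter filter (1500 genes or more, mitochondrial UMIs of 5% or less) gave −0.18. That filter is unequal between the libraries, since 40.4% of control and 89.6% of H2CKO cardiomyocyte-like cells were over 5% mitochondrial UMIs. At a limit of 1.5-fold, 7 of 30 members were called in compact-like cells (14.7% of all genes), 9 in outflow-like (18% of genes) and 6 in AV canal-like cells (16.7%), the last count near the share of all genes.

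**Figure D4:**
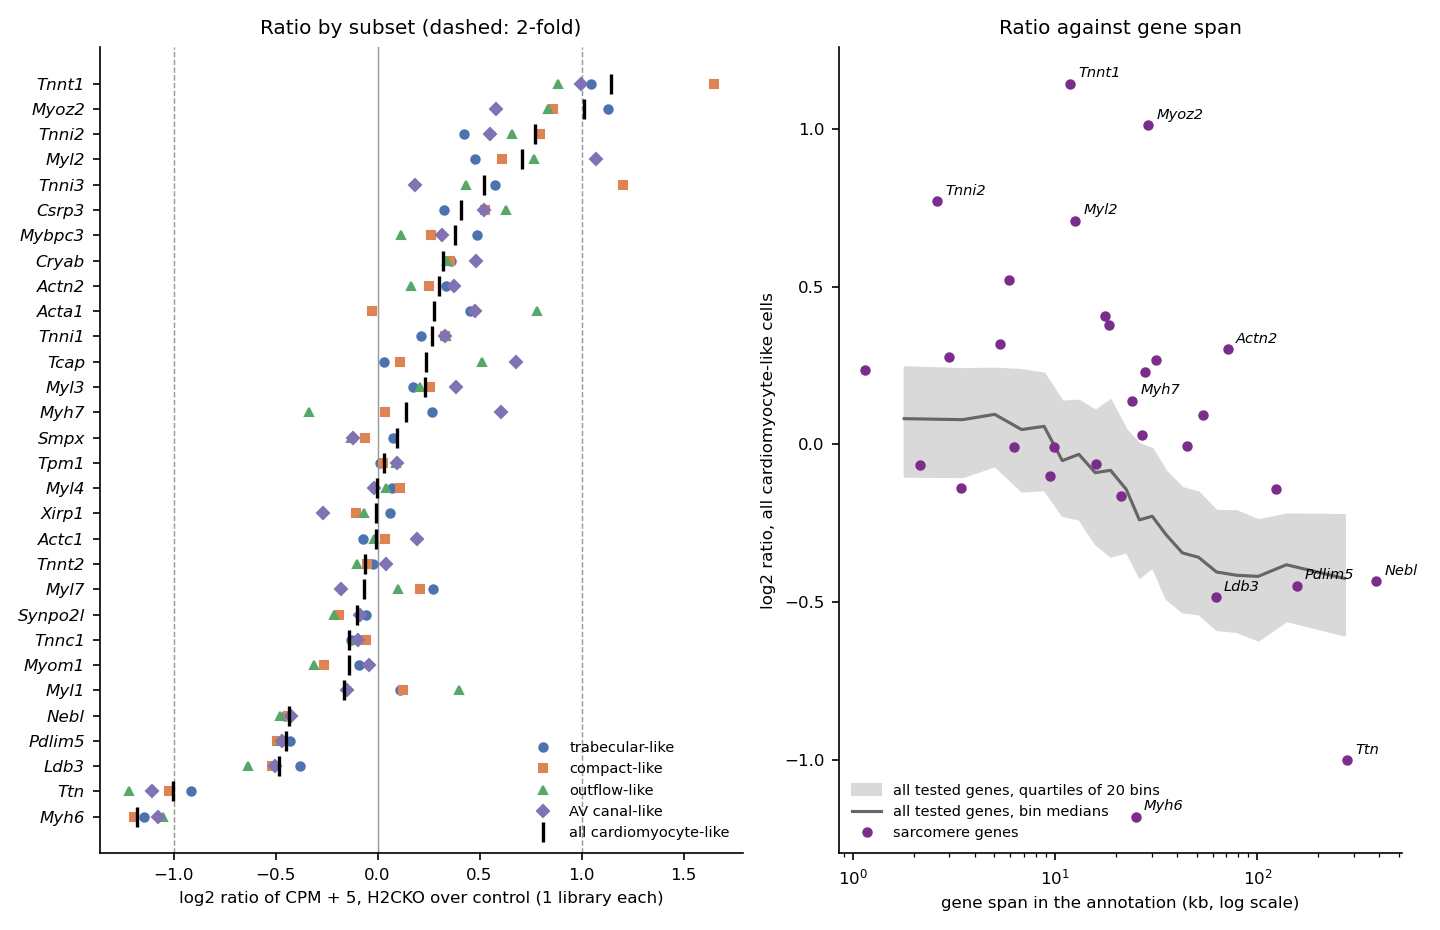
Log2 ratios of CPM plus 5, H2CKO over control, for 30 sarcomere genes by subset (left, dashed lines at 2-fold) and, for all cardiomyocyte-like cells, against the span of the gene in kb on a log scale (right, with quartiles of all tested genes in 20 bins). Tnnt1 lies furthest right in compact-like cells at 1.65, and Ttn lies below the trend of genes of like span.

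Among the troponins, Tnnt1 was past 2-fold between genotypes in compact-like and trabecular-like cells and Tnni3 in compact-like cells, where both had their largest ratio. Tnnt1 was at 302 CPM in control and 674 CPM in H2CKO cardiomyocyte-like cells, 2.21-fold higher (2.19 to 2.27). The difference was greatest in compact-like cells, at 254 and 807 CPM, 3.13-fold higher (3.07 to 3.28), where 4 of 30 members were past 2-fold against 1.22% of 5508 genes. It was 309.7 and 646 CPM in trabecular-like, 315 and 586 in outflow-like and 249.8 and 504 in AV canal-like cells, and stayed under 2-fold in outflow-like cells. In AV canal-like cells it was under 2-fold only through the added 5 CPM (log2 ratio 1.00, interval of the ratio of counts 1.82 to 2.24). Within trabecular-like clusters 2 and 1, Tnnt1 stayed under 2-fold, at log2 ratios of 0.82 and 0.59 in a subset where cluster 1 was the smaller cluster in control and the larger in H2CKO. Within compact-like clusters 0 and 3 it was past 2-fold in each, at 1.94 and 1.21. After thinning, a Tnnt1 UMI was seen in 46.5% of control and 67.2% of H2CKO compact-like cells, with 4.42% and 7.09% in erythroid-like cells. Tnnt1 took 4.55% of the UMIs of Tnnt1 and Tnnt2 in control compact-like cells and 13.6% in H2CKO, while Tnnt2 was at 5340.4 and 5144 CPM.

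Tnni3 was at 597 and 1378 CPM in compact-like cells, 2.30-fold higher in H2CKO (2.26 to 2.36), and past 2-fold in both compact-like clusters (log2 ratios 1.26 and 1.13). Elsewhere it stayed under 2-fold, at 1233 and 1837 CPM in trabecular-like, 1386 and 1871 in outflow-like and 2491 and 2827 in AV canal-like cells. The share of Tnni1 in the pair with Tnni3 was 82.1% in control and 71.4% in H2CKO compact-like cells, and 53.1% and 55.7% in AV canal-like cells. Whether the genotype ratio differs between subsets was not tested. Tnni2 was at 289 and 506 CPM in compact-like cells, a log2 ratio of 0.80. Tnni1, at 2695 and 3247 CPM in all cardiomyocyte-like cells, Tnnc1, at 4212 and 3827, and Tnnt2, at 5129 and 4914, stayed well under 2-fold. Tnnt1 (chr7:4504570-4516382) and Tnni3 (chr7:4518305-4524229) are neighbours on the minus strand, and Tnni3 overlaps the end of Dnaaf3 on the same strand, where reads could be assigned to either gene, as for Xirp1 and Cx3cr1.

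Myh6 was at 1282 CPM in control and 562 CPM in H2CKO cardiomyocyte-like cells, 2.27-fold lower (ratio 0.434 to 0.444). It was past 2-fold in each of the 4 subsets compared. It was at 1231 and 554 CPM in trabecular-like, 1399 and 609 in compact-like, 883 and 423 in outflow-like and 2817 and 1333 in AV canal-like cells. In the same order, Myh6 stayed past 2-fold under 11 of 16, 15 of 16, 10 of 15 and 10 of 13 alternatives. The smallest drops were −0.87, −0.99, −0.71 and −0.88 in log2. After thinning, a Myh6 UMI was seen in 92.7% of control and 78.6% of H2CKO cardiomyocyte-like cells, and in 9.10% and 2.58% of erythroid-like cells. Its neighbour Myh7 was at 2801 and 3085 CPM, with log2 ratios from −0.33 in outflow-like to 0.60 in AV canal-like cells. Myh6 took 31.4% of the UMIs of both genes in control and 15.4% in H2CKO, with 59.6% and 31.5% in AV canal-like cells. In erythroid-like cells the share was 30.2% and 13.0%, close to the cardiomyocyte-like share of the same library. Within trabecular-like cluster 2 the log2 ratio of Myh6 was −0.92, under 2-fold, and in cluster 1 it was −1.17.

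Ttn, which encodes titin, was at 8599 CPM in control and 4289.9 CPM in H2CKO cardiomyocyte-like cells, 2.0-fold lower (ratio 0.497 to 0.501). It was at 8452 and 4487 CPM in trabecular-like, 9059 and 4458 in compact-like, 10659.9 and 4575 in outflow-like and 8647 and 4011 in AV canal-like cells. The call sat at the threshold and was made under 6 of 12 alternatives in all cardiomyocyte-like cells, where the log2 ratio ranged from −1.27 to −0.58. Ttn covers 278.6 kb (chr2:76703980-76982547). Over all 5607 genes the genotype ratio was lower for longer genes, with a Spearman rho of −0.51 across genes, which are not independent replicates, and of −0.39 across the 30 members. Genes over 50 kb had a median log2 ratio of −0.40, and the 7 members of that length one of −0.43. With the trend in gene span taken out, Ttn was at −0.58 and Myh6, a gene of 25 kb, at −0.95. Nebl, the longest member at 387.6 kb, was at 846 and 625 CPM, a log2 ratio of −0.43, and Pdlim5 (156.1 kb) at 351 and 256 CPM. The median of members under 15 kb was 0.26, against 0.04 for all such genes. Mitochondrial share and depth differed between the libraries in the same cells, and whether they relate to this trend was not tested.

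Of the light chains, Myl2 was past 2-fold between genotypes in 1 named subset and the others in none. Myl2 was at 6817 and 11154 CPM in cardiomyocyte-like cells, a log2 ratio of 0.71, and past 2-fold in AV canal-like cells, at 3628 and 7636 CPM, 2.10-fold (2.05 to 2.16). There 3 of 30 members (Myl2, Myh6 and Ttn) were past 2-fold, against 1.91% of 6131 genes. In trabecular-like cells Myl2 was at 8854 and 12319 CPM and in compact-like cells at 8331 and 12725. Myl7 was at 8140.1 and 7781 CPM in all cardiomyocyte-like cells. The share of Myl2 in the pair was 45.6% and 58.9% in all cardiomyocyte-like cells of libraries with 98 and 6 atrial-like cells. It was 61.9% and 65.2% in trabecular-like, 58.5% and 65% in compact-like, 23.5% and 32.8% in outflow-like and 21% and 38.8% in AV canal-like cells. Myl3 was at 6692 and 7856 CPM and Myl4 at 7312 and 7293. Myl1 was at 318 and 284 CPM.

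Among Z-disc genes Myoz2 was the member past 2-fold. It was at 88.2 CPM in control and 183 CPM in H2CKO cardiomyocyte-like cells, 2.02-fold higher (2.01 to 2.14), and at 86.7 and 196 CPM in trabecular-like cells. It was under 2-fold in compact-like (106 and 196 CPM), outflow-like (74.8 and 137) and AV canal-like cells (162 and 245). Csrp3, the muscle LIM protein, was at 1484 and 1971 CPM, Actn2 at 531 and 656, Tcap at 256 and 303, Ldb3 at 199.8 and 141 and Synpo2l at 160.0 and 149. In trabecular-like cells 3 of 30 members (Tnnt1, Myoz2 and Myh6) were past 2-fold, against 0.953% of 5563 genes, with no member in cluster 2 alone (0.908% of genes) and 3 (Myoz2, Myh6 and Ttn) in cluster 1 alone (1.04%). With sarcomere genes kept for clustering, or at resolution 0.5, the count in the subset was 0. In outflow-like cells the 2 members were Myh6 and Ttn, against 1.53% of 5885 genes. In cluster 4 alone the 1 member was Ttn (1.65% of genes). In cluster 9 alone there were 3 (6.97% of genes): Myh6 (1244 and 434 CPM) and Ttn (10032 and 4056 CPM), lower in H2CKO, and Tnnt1 (215 and 467 CPM), higher. On the further list, Myoz1 (10.8 and 33.2 CPM) and Fhl2 (111 and 258 CPM) were past 2-fold and higher in H2CKO trabecular-like cells. Mybphl (11 and 28.9 CPM) and Myoz1 (13.5 and 34.1 CPM) were so in compact-like cells and Pdlim1 (56.8 and 122 CPM) in AV canal-like cells.

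The remaining members differed by less than 1.5-fold between the libraries in all cardiomyocyte-like cells. Actc1 was at 14113 and 14021 CPM, Acta1 at 633 and 768, Tpm1 at 7296 and 7448, Mybpc3 at 471 and 614 and Myom1 at 248 and 225. Cryab was at 799.8 and 999 CPM, Smpx at 715 and 763 and Xirp1 at 73.7 and 73.3. Acta1 was nearer 2-fold in outflow-like cells, at 668 and 1152 CPM, where it took 4.72% and 7.95% of the actin pair. Myh7b, a myosin heavy chain of slow-tonic muscle, was at 12.2 and 11.1 CPM, under the filter. Myom2 (0.363 and 0.158 CPM) and Xirp2 (0.346 and 0.716 CPM) were barely detected.

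Outside cardiomyocytes, the levels of most members were low, and are given as a percent of the level in cardiomyocyte-like cells of the same library. In erythroid-like cells the median over all 33 members was 2.23% of the cardiomyocyte-like level in control, with quartiles of 1.90% and 2.49%, and 2.22% in H2CKO, with quartiles of 1.6% and 2.55%. Haemoglobin took 66.0% and 68.8% of the UMIs of these cells, which lowers the share left for every other transcript. The medians were 2.96% and 2.85% in endothelial-like, 3.5% and 3.15% in mesenchymal-like and 3.01% and 3.32% in epicardial-like cells. White blood cell-like cells (68 and 103) stood higher in control, at 7.40% (quartiles 6.01% and 10.2%), with 3.15% in H2CKO. A few control cells carried that level: the 33 genes took a median of 0.179% of a white blood cell-like cell's UMIs in control and 0.190% in H2CKO, with 95th percentiles of 2.45% and 0.464%. Levels in these classes are given as free RNA, the transcripts that droplets pick up from the suspension, and a member at or below the median was not read as expressed there.

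**Figure D5:**
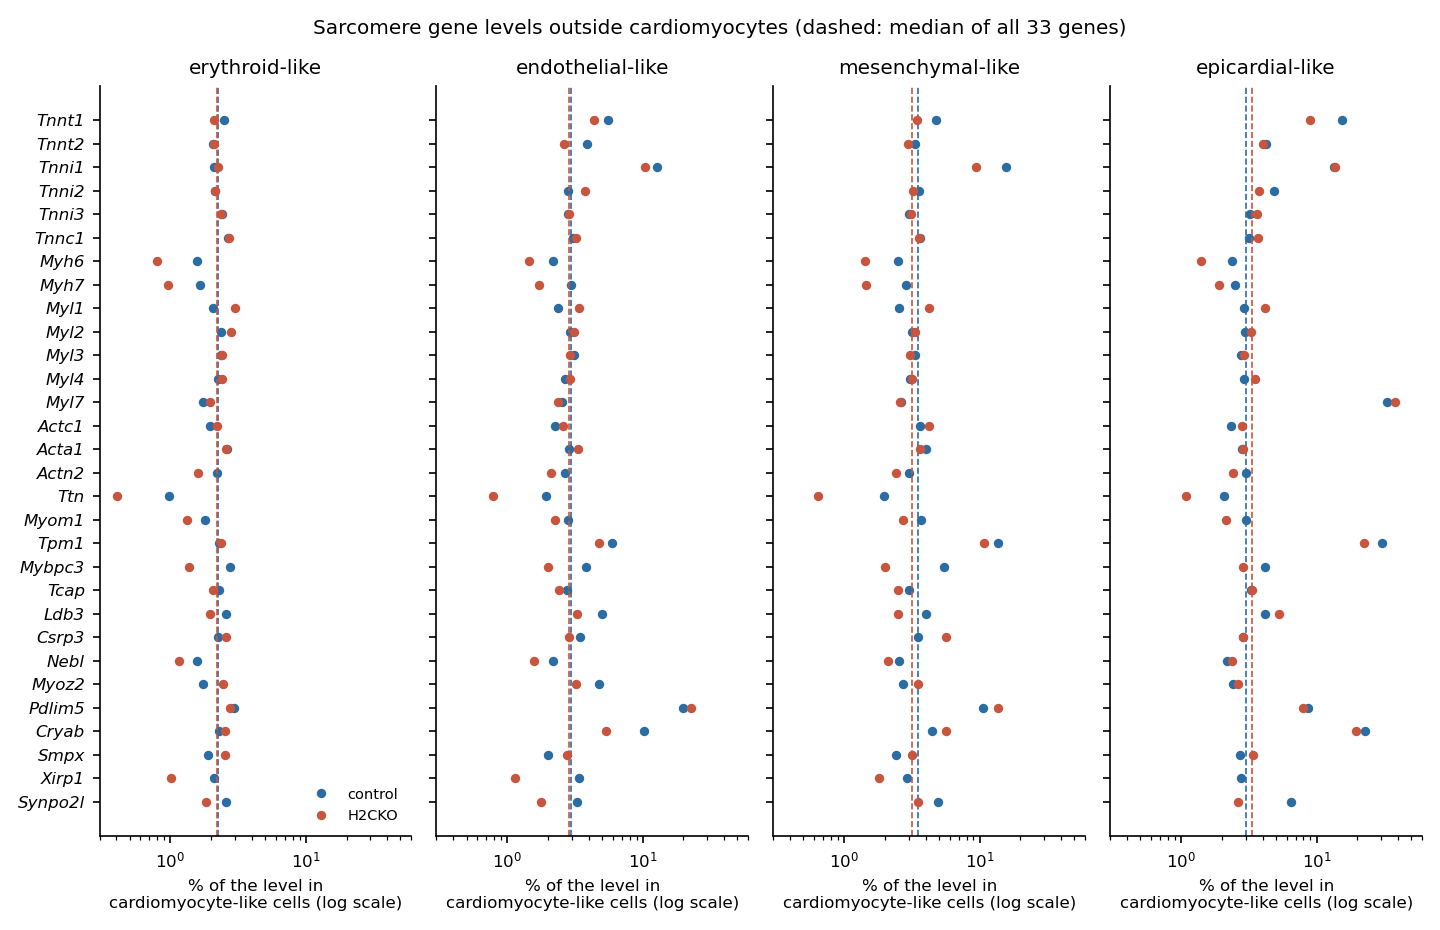
Level of each of 30 sarcomere genes in 4 classes of other cells as a percent of the cardiomyocyte-like level in the same library (log scale), with dashed lines at the median of all 33 genes; Xirp1, at 0 UMIs in H2CKO epicardial-like cells, has no point there. Most points lie near the lines at 2.22% to 3.5%, Myl7 stands at 32.8% and 37.7% in epicardial-like cells, and Ttn lies lowest in H2CKO.

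Some members stood above that common level in particular cell types. In epicardial-like cells, the outer covering of the heart, Myl7 was at 2671 CPM in control and 2935 CPM in H2CKO, 32.8% and 37.7% of the cardiomyocyte-like level and 10.9 and 11.4 times the median member. Tpm1 was at 2226 and 1673 CPM there, Cryab at 183 and 195, Tnni1 at 359.8 and 446 and Tnnt1 at 46.3 and 59.8. Tpm1 and Tnni1 were also above the common level in mesenchymal-like cells (999 and 799 CPM of Tpm1, 419 and 303 CPM of Tnni1). Tnni1 was as far above it in endothelial-like cells, at 343 and 336 CPM, 4.30 and 3.63 times the median member. Pdlim5 was at 70.1 and 58.7 CPM in endothelial-like cells, 6.73 and 8.03 times the median member, and at 3.03 and 4.32 times in mesenchymal-like cells. In white blood cell-like cells Tnni2 was at 36 and 31 CPM, 3.28 and 3.83 times the median member. Tropomyosin 1, PDLIM5 and the chaperone encoded by Cryab are known from cells other than muscle. Myl2, the ventricular partner of Myl7, was at 2.94% and 3.27% of its cardiomyocyte-like level in the same epicardial-like cells, near the median member.

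In erythroid-like, mesenchymal-like, epicardial-like and endothelial-like cells Ttn and Myh6 lay below the median member, and further below it in H2CKO. In white blood cell-like cells, where a few control cells carried the summed level, Ttn and Myh6 were at 7.40% and 7.43% of their cardiomyocyte-like level in control and at 1.64% and 1.80% in H2CKO. In erythroid-like cells Ttn was at 0.981% of its cardiomyocyte-like level in control and 0.403% in H2CKO, and Myh6 at 1.57% and 0.791%. Myh7 was at 1.65% and 0.967%. Ttn and Myh6 were also lower in H2CKO outside the cardiomyocytes. Levels there are given as free RNA of the same libraries, so this is not an independent repeat of the genotype difference. Ttn was 4.01-fold lower in H2CKO erythroid-like (84.4 and 17.3 CPM), 5.31-fold in mesenchymal-like, 3.56-fold in epicardial-like and 4.44-fold in endothelial-like cells. Myh6 was 2.65-fold, 2.82-fold, 2.75-fold and 2.52-fold lower in the same classes. In those classes 2 of 15, 3 of 21, 2 of 19 and 2 of 19 tested members were past 2-fold, against 8.11%, 3.95%, 5.62% and 8.3% of all genes, and the third in mesenchymal-like cells was Csrp3, at 51.9 and 111 CPM. With free RNA at the erythroid-like profile taken off, the ratios in cardiomyocyte-like cells were −0.99 for Ttn and −1.17 for Myh6. Myh7b was out of proportion in erythroid-like cells, at 3.95 and 1.09 CPM, or 32.3% and 9.87% of its low cardiomyocyte-like level.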

How the data were processed

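The authors deposited, per the file headers, 1 matrix of raw UMI counts per library, with Ensembl mouse gene IDs and barcodes. The submitters' processing notes name Cell Ranger 5.0.1, Seurat 4 and GRCm38.p6, with no role given for each. The authors also deposited embedding coordinates, a score without a unit, which served here only to mark a subset of barcodes for an alternative. A symbol was found for 22285 of the 22401 features. Every barcode held at least 500 UMIs.

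Barcodes were kept with 500 genes or more and mitochondrial UMIs of 10% or less. Scrublet (scanpy 1.11.5) left out 920 of 9841 control cells. In H2CKO its automatic threshold marked 0, so the top 5% of scores (607 of 12141 cells) were left out. Leiden clustering (leidenalg 0.10.2, resolution 1) used 2000 variable genes and 30 components, without the 33 members, 58 further sarcomere genes, haemoglobin, mitochondrial and sex-linked genes, Hand2 or the reporters. Cardiomyocyte-like cells were clustered again with cell-cycle scores and depth regressed out. A cluster took the marker list with the highest median log2 fold (at least 0.25, or 0.2 for subsets) that had at least 3 markers and 65% of the list in at least 10% of its cells. Shallow clusters, and those with more markers of another list among their top 10 genes, stayed unnamed. This naming rule was set after the clusters had been seen. The cells of the 4 unnamed cardiomyocyte clusters count among cardiomyocyte-like cells but in no subset.

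The UMIs of all cells of a class in a library were added up and scaled by their total (CPM). Ratios used a pseudocount of 5 CPM. Intervals are exact 95% (scipy 1.17.1) and cover counting error only. The code was tested on simulated data. Gene positions and spans are from GENCODE M21 on GRCm38. Members overlapped on the opposite strand by another gene include Tnnc1, Myh7, Myl2, Myl3 and Cryab, and whether counting used strand is not given in the sources used here. All 33 members may be named, and of the 58 further genes up to 6 past 2-fold per comparison. The members, lists and comparisons were chosen with earlier results of these data known. The planned comparison of genotypes in atrial-like cells was not made, with 6 such cells in H2CKO.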

Additional observations from a re-analysis of the deposited data

Results flagged for a closer look

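Against compact-like cells of the control library, the ratio of Tnnt1 had opposite signs in the trabecular-like clusters, at a log2 ratio of −1.56 in cluster 2 and 1.38 in cluster 1. The difference between the clusters was not tested, since each has 1 control library. In H2CKO the values were −2.39 and 0.32.

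A cluster of shallow cells that was given no name, and that enters no comparison above, held sarcomere transcripts. The 33 genes made up 7.07% of the UMIs of its 1133 control cells and 5.91% of those of its 265 H2CKO cells, above the 0.170% and 0.188% in erythroid-like cells. Its cells had medians of 1569 and 1591 UMIs, and mitochondrial UMIs had medians of 0.600% and 3.37%. The share of Myh6 in its pair with Myh7 was 37.7% in control and 19.1% in H2CKO there. Whether these are damaged cardiomyocytes, droplets without a cell or something else was not tested.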

How the results depend on the processing

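No paired analysis was possible because each genotype has 1 library. Between genotypes in cardiomyocyte-like cells, 4 members were past 2-fold, and 2 (Tnnt1 and Myoz2) with the trend in gene span taken out. That trend also brought the count from 2 to 1 in outflow-like cells and from 3 to 1 in AV canal-like cells. The other outflow-like counts of 1 came from the cells of the authors' embedding, from keeping doublets and from cluster 4 alone. The trabecular-like count of 3 was 0 with sarcomere genes kept for clustering, at resolution 0.5 and in cluster 2 alone, and 3 in cluster 1 alone. A limit of 1.5-fold gave 7 members in compact-like (14.7% of all genes), 9 in outflow-like (18%) and 6 in AV canal-like cells (16.7%), and 10 for AV canal-like over ventricular-like cells (14.5%). For trabecular-like over compact-like cells, the count of 1 was 0 with the embedding's cells and at resolution 2, and 2 at resolution 0.5 and in cluster 2 alone. Single clusters were tried after the data had been seen.

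The median member ratio of 0.06 in cardiomyocyte-like cells was −0.18 with the strict cell filter, the one alternative below 0. It was 0.13 in the embedding's cells, 0.082 with doublets kept, 0.042 thinned, 0.094 with a 100 CPM filter and 0.030 with none. It was 0.24 centred on the median gene, 0.12 scaled without members, haemoglobin and mitochondrial genes, and 0.23 with the span trend taken out. The free RNA medians of 2.23% (control) and 2.22% (H2CKO) were 7.40% and 3.15% in white blood cell-like cells, where a few control cells carried the level, and 2.04% and 2.15% with the strict filter. They were 2.35% in control when thinned and 2.17% in H2CKO with doublets kept. The cause was not tested in any of these. Of the ratios of single members past 2-fold, 187 of 229 values under the alternatives stayed so between genotypes and 484 of 501 between subsets, and 0 reversed. However, 122 of the 229 and 184 of the 501 values fell outside the counting interval of the main value. So did 256 of 420 shares of paralog pairs. The printed intervals cover counting error only and do not take in these changes with processing.

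The strict filter left 43 H2CKO outflow-like and 35 and 23 AV canal-like cells, under the minimum of 50, and the embedding held no erythroid-like cells, so those values were not computed. With 1 library each, neither embryo-to-embryo spread nor library effects can be told apart from genotype. Atrial-like values rest on 98 control cells. Members under 20 CPM were not compared.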
